A study of Mus musculus with 4 samples.

Results

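The genes described here are 9 hematopoietic cytokine receptor genes, Flt3, Csf3r, Csf2ra, Csf2rb, Csf2rb2, Csf1r, Il6ra, Il6st and Epor, chosen by gene symbol from the 24421 genes of the deposited count table. All 9 were found and all 9 passed the filter on low counts, among 13296 genes tested. Messenger RNA had been sequenced from LSK cells, the marrow fraction that lacks lineage markers and carries Sca1 and Kit, which contains stem cells and multipotent progenitors. There were 2 libraries from p53R248W/+ mice, which carry the R248W missense allele of p53 beside a normal allele, and 2 libraries from WT mice, all aged 13 to 15 months. The mice received no treatment that the labels mention. The labels do not say whether the libraries of a genotype came from separate mice or from pooled mice, and the p-values below therefore describe library-to-library spread, some of which may be technical.

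Cytokine receptors let blood progenitors respond to survival, growth and lineage signals. Flt3 and Csf1r are receptor tyrosine kinases, which phosphorylate themselves when their ligand brings 2 copies together. The others belong to the type I cytokine receptor family, which has no kinase of its own and works through bound JAK kinases and STAT transcription factors. Flt3 marks multipotent progenitors with lymphoid potential and is low or absent on the most primitive stem cells, while Csf1r and Epor are best known from the monocyte and erythroid lineages.

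The libraries held 14820759 and 12111126 counted reads for p53R248W/+ and 14544290 and 14109906 for WT. Kit, which encodes a surface protein that defines LSK cells, was at 1182 and 1105 CPM (counts scaled to library size) in p53R248W/+ and at 911 and 998 CPM in WT. Ly6a, which encodes Sca1, was at 81.1 and 70.8 CPM in p53R248W/+ and at 40.2 and 82.9 CPM in WT. The globin genes Hba-a1, Hba-a2, Hbb-bt and Hbb-bs had 0 reads in all 4 libraries, which allows up to 0.202 to 0.248 CPM at a floor of 3 counts. Markers of B cells and of T and NK cells were present at low levels, with summed CPM of 124 and 69.6 in p53R248W/+ and 66.9 and 56.2 in WT for B and plasma cells, led by Jchain, and of 35.5 and 34.9 in p53R248W/+ and 17.7 and 43.4 in WT for T and NK cells, led by Nkg7. Trp53 itself was at 245 and 332 CPM in p53R248W/+ and at 362 and 302 CPM in WT, and gene counts cannot separate its alleles.

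No receptor gene passed the test for a difference between the genotypes. Of the 9 genes, 0 passed an adjusted p of 0.05 in edgeR's quasi-likelihood test, against a background of 0% of all tested genes, and 0 had an unadjusted p under 0.05, against 5.87% (780 genes) of all tested. DESeq2 and limma-voom also called 0 of the 9, and 0 of the 9 had an unadjusted p under 0.05 in either. In 5 genes the log2 fold change of p53R248W/+ over WT was above 0 and in 4 it was below 0, with a median of 0.05 beside a median of 0.00 over all tested genes. The p53R248W/+ and WT values were separate, without overlap, for 1 of the 9, Csf2ra, as they were for 33.6% of all tested genes.

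**Figure D1:**
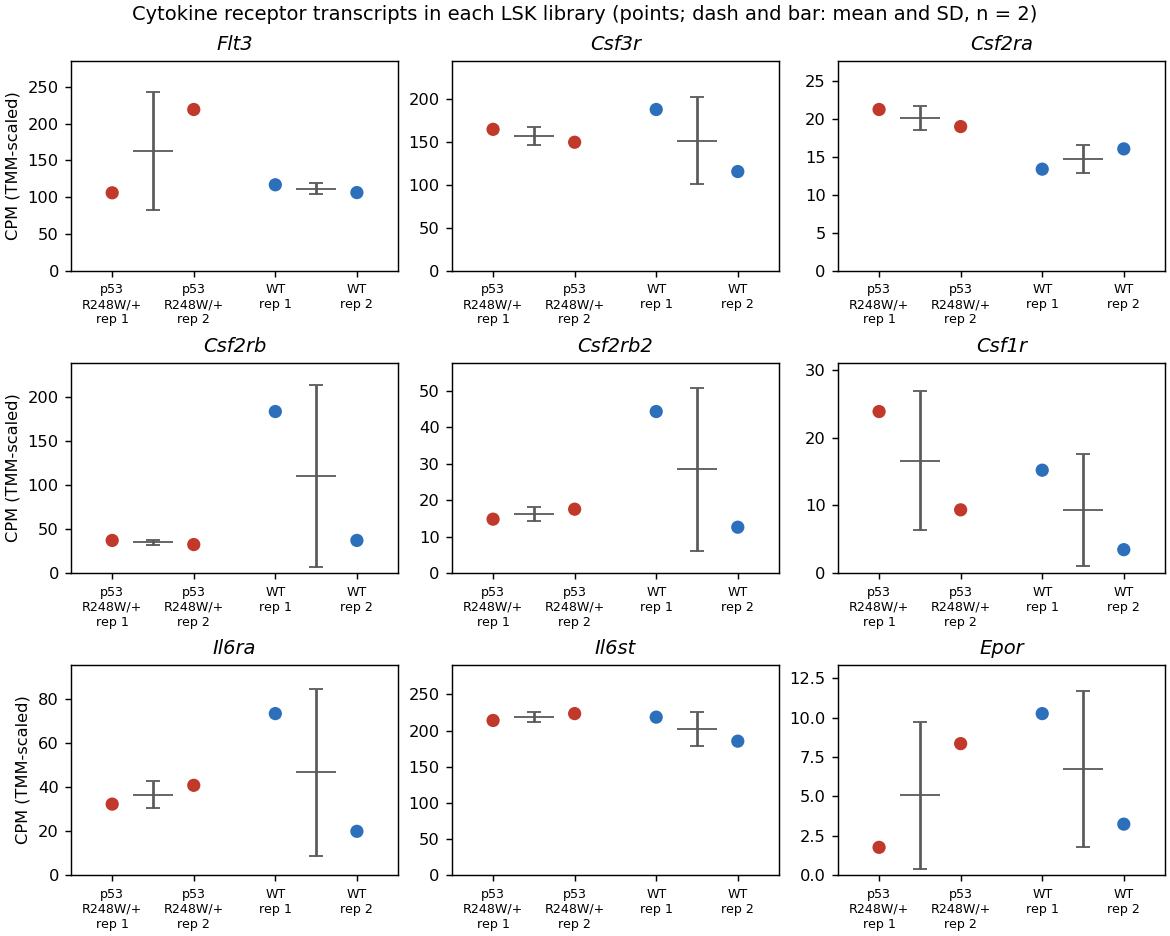
CPM of each receptor gene (vertical axes from 0, CPM scaled by TMM) in the 2 p53R248W/+ libraries (red) and the 2 WT libraries (blue), with the mean and SD of each genotype (n = 2). Csf2rb, Csf2rb2 and Il6ra are high in WT replicate 1 only, Flt3 is high in p53R248W/+ replicate 2 only, and Csf2ra is the gene whose genotypes do not overlap.

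The WT libraries differed more from each other than the p53R248W/+ libraries did, except for Flt3 and Epor. The WT difference was small for Il6st, at 1.18-fold, and for Csf2ra, at 1.20-fold. For Csf2ra the mean of p53R248W/+ stood 1.37-fold over that of WT. Flt3 differed 2.07-fold between the p53R248W/+ libraries and 1.10-fold between the WT libraries, and Epor 4.76-fold and 3.18-fold. The absolute log2 difference between the p53R248W/+ libraries had a median of 0.24 over the 9 receptor genes, against 0.42 over all tested genes. Between the WT libraries the same median was 1.53 over the receptor genes, against 0.43 over all tested genes. In 8 of the 9 genes WT replicate 1 was the higher WT library, and the exception was Csf2ra. The same share over all tested genes was not counted.

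Per unit of length, 3 receptors formed the top of the order. Levels between genes were compared in RPKM, which scales reads to exon length and library total, and the order is by the mean of the 4 libraries. Il6st averaged 38.6 RPKM (range 33.99 to 41.0), Csf3r 38.1 RPKM (28.5 to 46.4) and Flt3 37.5 RPKM (29.0 to 59.96). Csf2rb followed at a mean of 15.2 RPKM (6.74 to 38.4), Il6ra at 12.4 RPKM (5.94 to 21.97) and Csf2ra at 9.42 RPKM (7.24 to 11.5). The lowest were Csf2rb2 at 4.71 RPKM (2.65 to 9.36), Csf1r at 3.35 RPKM (0.887 to 6.16) and Epor at 3.22 RPKM (0.959 to 5.61). Every pair of neighbours in this order overlapped over the 4 libraries, so no neighbour was set apart from the next beyond its spread. The place of Csf2rb rests on WT replicate 1, since in the other libraries it lay at 6.74 to 7.73 RPKM, below Csf2ra in each.

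**Figure D2:**
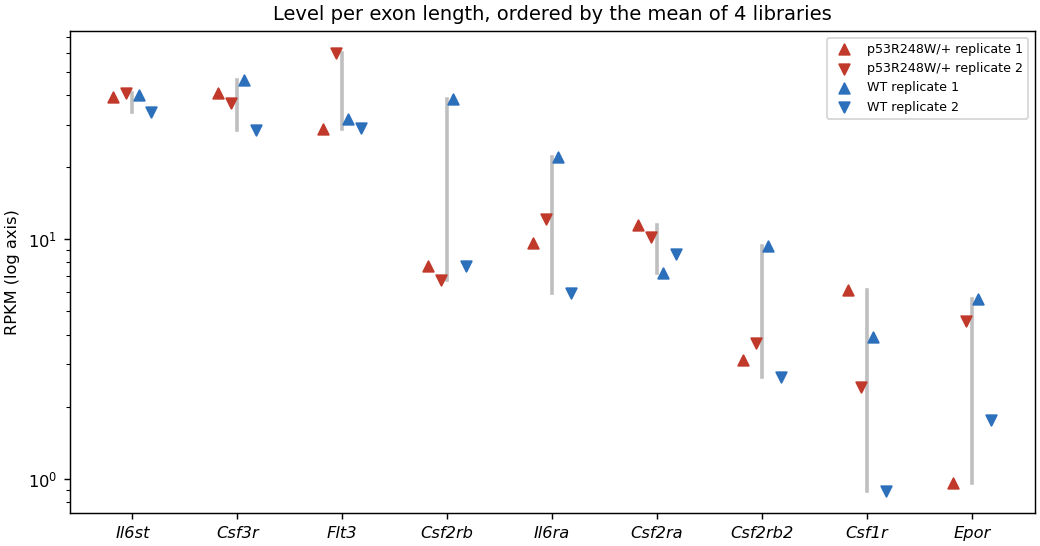
RPKM of the 9 receptor genes on a log axis, ordered by their mean, with 1 point for each library (red p53R248W/+, blue WT) and a grey line over the range of the 4 libraries. Il6st, Csf3r and Flt3 lie above 28 RPKM in all 4 libraries, and Csf1r and Epor spread widest at the low end.

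Flt3, the receptor for Flt3 ligand (mm10 chr5:147330742-147400489, minus strand, 24 exon blocks), was high in 1 p53R248W/+ library. It was at 106 and 219 CPM in p53R248W/+ replicates 1 and 2 and at 117 and 106 CPM in WT replicates 1 and 2. The genotypes overlapped, since p53R248W/+ replicate 1 lay level with WT replicate 2. Its log2 fold change, p53R248W/+ over WT, was 0.53 ± 0.28 (SE, 2 libraries each), with a 95% interval from -0.07 to 1.12 (adjusted p = 0.825, edgeR quasi-likelihood test). Without p53R248W/+ replicate 2 it was -0.08, and without p53R248W/+ replicate 1 it was 0.97.

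The markers of lymphoid-primed progenitors stood highest in the same library as Flt3. Over the 9 measured of 10 listed genes their summed level was 684 and 1070 CPM in p53R248W/+ and 816 and 605 CPM in WT. Dntt, a template-independent polymerase active in lymphoid precursors, was at 155 and 284 CPM in p53R248W/+ and at 93.3 and 114 CPM in WT, and Satb1, a chromatin organiser of the lymphoid lineage, was at 136 and 240.5 CPM against 206 and 125 CPM. In bulk RNA, more cells of a type and more RNA per cell cannot be told apart. The part of these markers in the Flt3 values was not tested.

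Csf3r, the G-CSF receptor of the granulocyte lineage (chr4:126024659-126044975, plus strand, 17 exon blocks), was at similar levels in both genotypes. It was at 165 and 150 CPM in p53R248W/+, or 157 ± 10.6 CPM, and at 188 and 115 CPM in WT, or 152 ± 51.1 CPM (SD, n = 2). Both p53R248W/+ libraries lay between the WT libraries. On the log2 scale the fold change was 0.05 ± 0.24 (SE; adjusted p = 0.986, edgeR quasi-likelihood test). The 95% interval ran from -0.45 to 0.56, so it held changes in either direction and is not a limit of detection. The direction of the fold change turned without WT replicate 2 (-0.25) and without p53R248W/+ replicate 1 (-0.02), and without WT replicate 1 it was 0.44.

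The IL-6 receptor has a ligand-binding chain, Il6ra, and a signalling chain, Il6st or gp130, which several other cytokines share. Il6st (chr13:112464070-112506860, plus strand, 17 exon blocks) was the steadiest of the 9 genes, at 214 and 223.5 CPM in p53R248W/+ and at 219 and 185 CPM in WT. Its log2 fold change was 0.11 ± 0.19 (SE), with a 95% interval from -0.29 to 0.52 (adjusted p = 0.956, edgeR quasi-likelihood test), the narrowest interval among the receptors, and it was 0.00014 without WT replicate 2 and 0.24 without WT replicate 1. Il6ra (chr3:89869324-89913162, minus strand, 10 exon blocks) was at 32.2 and 40.8 CPM in p53R248W/+, while WT held both the highest and the lowest library, at 73.4 and 19.8 CPM.

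The Il6ra fold change had no stable direction. It was -0.37 ± 0.47 on the log2 scale (SE; adjusted p = 0.937, edgeR quasi-likelihood test), 0.87 without WT replicate 1 and -1.02 without WT replicate 2. In RPKM, Il6st stood over Il6ra by ratios of 4.07 and 3.36 in the p53R248W/+ libraries and of 1.83 and 5.72 in the WT libraries, so the signalling chain had the higher transcript level in all 4.

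GM-CSF binds the alpha chain Csf2ra together with the common beta chain Csf2rb, which IL-3 and IL-5 also use. Csf2rb2 encodes a second beta chain of the mouse that serves IL-3. Csf2ra (chr19:61224402-61228418, minus strand, 12 exon blocks) was at 21.2 and 19.0 CPM in p53R248W/+ and at 13.4 and 16.1 CPM in WT, and both p53R248W/+ libraries lay above both WT libraries. Its log2 fold change was 0.46 ± 0.50 (SE), with a 95% interval from -0.60 to 1.51 (adjusted p = 0.922, edgeR quasi-likelihood test). It lay between 0.33 and 0.59 with single libraries left out. Of all tested genes, 16.9% lay in the same way above WT in both p53R248W/+ libraries.

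Csf2rb (chr15:78325990-78351001, plus strand, 14 exon blocks) had the fold change farthest from 0 among the receptors, and that value came from 1 WT library. It was at 36.8 and 32.1 CPM in p53R248W/+, or 34.5 ± 3.32 CPM, and at 183 and 36.8 CPM in WT, or 110 ± 103 CPM (SD, n = 2). WT replicate 1 stood 4.97-fold above WT replicate 2, and a difference between WT libraries at least as large was seen in 3.38% of tested genes. In the fit the log2 fold change was -1.67 ± 0.78 (SE), with a 95% interval from -3.60 to 0.27 (adjusted p = 0.825, edgeR quasi-likelihood test). Without WT replicate 1 it was -0.09, and without WT replicate 2 it was -2.40.

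Csf2rb2 (chr15:78282508-78305721, minus strand, 14 exon blocks) had the same high library at a lower level. It was at 14.8 and 17.5 CPM in p53R248W/+ and at 44.4 and 12.6 CPM in WT, and both p53R248W/+ libraries lay between the WT libraries. The log2 fold change was -0.83 ± 0.56 (SE; adjusted p = 0.851, edgeR quasi-likelihood test), 0.35 without WT replicate 1 and -1.47 without WT replicate 2. In RPKM, Csf2rb stood over Csf2rb2 by 2.48 and 1.83 in p53R248W/+ and by 4.10 and 2.92 in WT. Csf2rb stood to Csf2ra at 0.673 and 0.656 in p53R248W/+ and at 5.30 and 0.890 in WT, so the beta chain transcript exceeded the alpha chain transcript in WT replicate 1 only.

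The beta chain genes lie side by side on chromosome 15 and are close copies, which bears on how far their counts can be told apart. Over the aligned coding sequences of GENCODE M21, 95.2% of 2628 bases were identical. Their longest identical run covered 242 bases, from base 2083 to base 2324 of each coding sequence, counted from the A of the start codon. A read that falls wholly inside that run cannot be assigned to either gene, and it is shown here for that reason.
Csf2rb and Csf2rb2: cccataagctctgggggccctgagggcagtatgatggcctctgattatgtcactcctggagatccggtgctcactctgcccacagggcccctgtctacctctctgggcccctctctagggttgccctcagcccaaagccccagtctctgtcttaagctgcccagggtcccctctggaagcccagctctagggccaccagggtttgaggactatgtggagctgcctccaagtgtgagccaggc
The ungapped stretch of 60 bases with the most mismatches held 13. It spans bases 304 to 363 in Csf2rb and 307 to 366 in Csf2rb2 and shows where reads do separate the genes, with capitals at the bases that differ.
Csf2rb: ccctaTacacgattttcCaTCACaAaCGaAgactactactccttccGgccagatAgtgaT
Csf2rb2: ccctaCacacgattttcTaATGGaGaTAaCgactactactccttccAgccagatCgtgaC
Of all 50-base words in the protein-coding transcripts, 17.1% of those of Csf2rb and 18.8% of those of Csf2rb2 occurred in the other gene, and for 100-base words the shares were 6.5% and 7.0%. Neither the read length nor the treatment of reads with several alignments is stated in the labels, so each of the paired counts is less certain than those of the other receptors. Both genes also share 62 exon bases with the entries Mir7676-1 and Mir7676-2, which had 0 counts.

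Granulocyte markers stood highest in the library where Csf2rb, Csf2rb2 and Il6ra were high. Over all 12 listed genes their summed level was 736 and 645.5 CPM in p53R248W/+ and 1447 and 413 CPM in WT. Mpo, the myeloperoxidase of granule precursors, made up most of it, at 628 and 544 CPM in p53R248W/+ and at 1273 and 314 CPM in WT. The late neutrophil genes went the other way between the WT libraries: S100a8 was at 5.93 and 10.7 CPM in p53R248W/+ and at 1.05 and 7.79 CPM in WT, and Camp had 0 reads in WT replicate 1. The part of these markers in the receptor values was not tested.

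**Figure D3:**
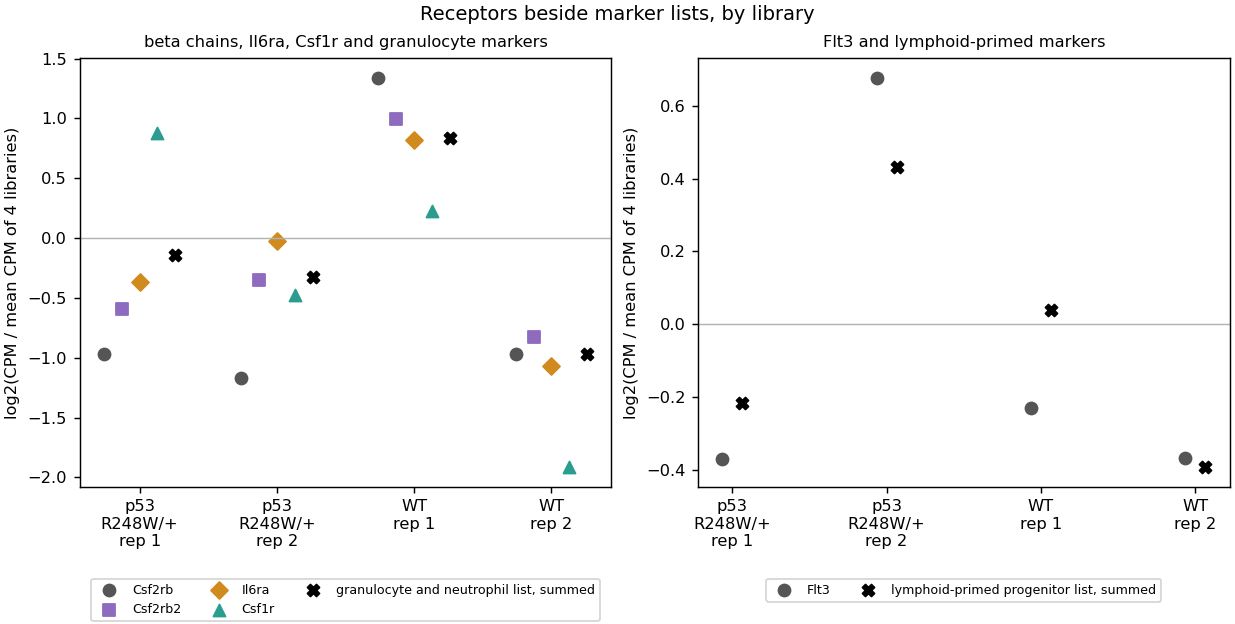
Each library's CPM as log2 of its ratio to the mean CPM of the 4 libraries, for Csf2rb, Csf2rb2, Il6ra and Csf1r with the summed granulocyte markers (left) and for Flt3 with the summed lymphoid-primed markers (right). The granulocyte sum is highest in WT replicate 1 at 1447 CPM, with Csf2rb, Csf2rb2 and Il6ra, whereas Csf1r is highest in p53R248W/+ replicate 1, and Flt3 and the lymphoid-primed sum of 1070 CPM are highest in p53R248W/+ replicate 2.

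Csf1r, the M-CSF receptor of monocytes and macrophages (chromosome 18), was low and uneven. It was at 23.9 and 9.33 CPM in p53R248W/+ and at 15.2 and 3.44 CPM in WT. In each genotype replicate 1 was the higher library, and the genotypes overlapped. The log2 fold change was 0.88 ± 0.67 (SE), with a 95% interval from -0.54 to 2.30 (adjusted p = 0.875, edgeR quasi-likelihood test). It was -0.00014 when p53R248W/+ replicate 1 was left out and 1.35 when p53R248W/+ replicate 2 was. Leaving out WT replicate 1 gave 2.32 and leaving out WT replicate 2 gave 0.18. Over the 12 monocyte and macrophage markers the summed level was 110 and 146 CPM in p53R248W/+ and 143 and 89.0 CPM in WT, and the macrophage complement genes C1qa and C1qb were at 0 to 0.279 CPM. The markers had no high library in common. Ly6c2, Ly86 and Adgre1 were highest in p53R248W/+ replicate 1, as Csf1r was. Irf8, Cd68, Ccr2 and Cx3cr1 were highest in p53R248W/+ replicate 2, and the rest in a WT library. Ly6c2, the highest of the list in mean CPM, was at 45.1 and 18.75 CPM in p53R248W/+ and at 38.2 and 17.7 CPM in WT. Cd68, a lysosomal protein of macrophages, was at 7.42 and 49.6 CPM in p53R248W/+ and at 33.5 and 26.4 CPM in WT. Adgre1, the F4/80 antigen, was at 5.80 and 0.165 CPM in p53R248W/+ and at 0 and 0.281 CPM in WT. The part of these markers in the Csf1r values was not tested.

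Epor, the erythropoietin receptor (chr9:21958899-21963576, minus strand, 8 exon blocks), had the fewest reads of the receptors summed over the libraries, with 26 and 101 reads in p53R248W/+ and 147 and 46 reads in WT. That is 1.75 and 8.34 CPM in p53R248W/+ and 10.2 and 3.23 CPM in WT, and the genotypes overlapped. In RPKM it lay below Csf1r only in p53R248W/+ replicate 1, on which its last place by mean rests. The log2 fold change was -0.51 ± 0.88 (SE), with a 95% interval from -2.37 to 1.34 (adjusted p = 0.959, edgeR quasi-likelihood test). Its direction turned without WT replicate 1 (0.55) and without p53R248W/+ replicate 1 (0.31), and without p53R248W/+ replicate 2 it was -1.94. Of the 12 erythroid markers 5 were tested. The summed level over all 12, led by Car2, was 856 and 1030 CPM in p53R248W/+ and 689 and 947 CPM in WT. Car2 alone was at 738 and 816 CPM in p53R248W/+ and at 514 and 813 CPM in WT. Among the tested markers, Tfrc and Ermap were lowest in p53R248W/+ replicate 1, as Epor was. Car1 and Gata1 were lowest in p53R248W/+ replicate 2, and Car2 was lowest in WT replicate 1. Klf1, a factor that defines erythroid precursors, was at 0.0697 to 1.33 CPM over the 4 libraries, and the globin genes were at 0. Gata1, the erythroid and megakaryocyte factor, was at 0.809 and 0.165 CPM in p53R248W/+ and at 6.76 and 5.54 CPM in WT, the only tested marker of the list with an unadjusted p under 0.05 (adjusted p = 0.824, edgeR quasi-likelihood test). The part of these markers in the Epor values was not tested.

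**Figure D4:**
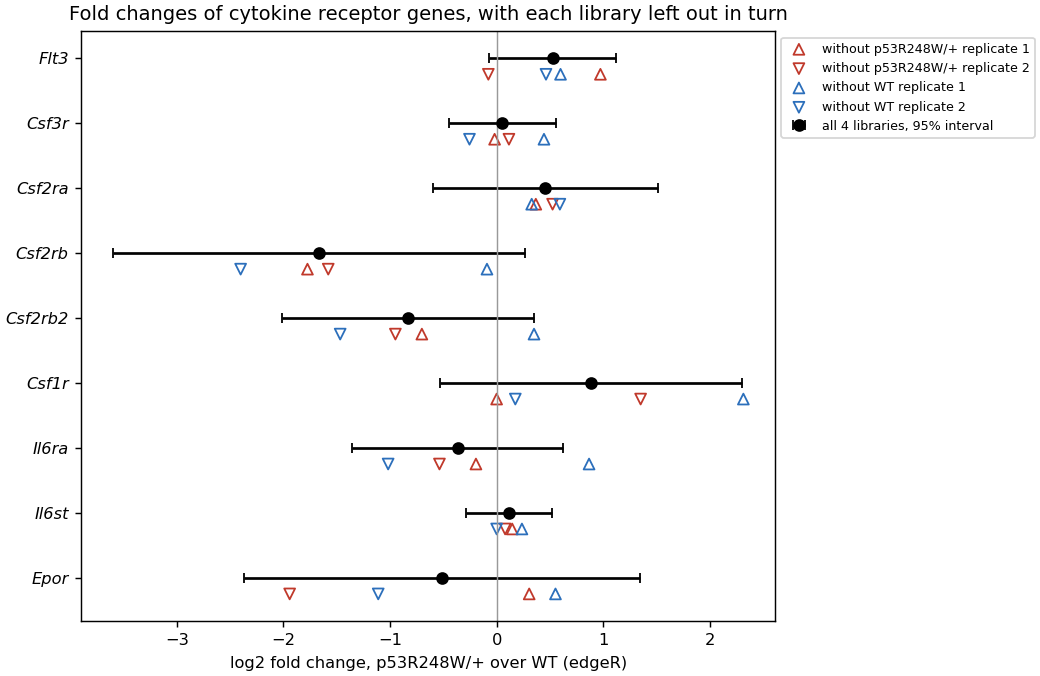
Log2 fold change of each receptor gene, p53R248W/+ over WT, from all 4 libraries with its 95% interval (black) and with each library left out in turn (triangles, red where a p53R248W/+ library and blue where a WT library is left out). Every 95% interval includes 0, and leaving out WT replicate 1 puts Csf2rb at -0.09 in place of -1.67 and turns Csf2rb2, Il6ra and Epor above 0.

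The receptors most alike across the 4 libraries were the steady ones and the ones high in WT replicate 1. Likeness was measured as the root mean square difference of log2 CPM, each gene centred on its own mean, over 4 libraries. Csf3r and Il6st were each other's nearest member at 0.18, and Csf2rb2 and Il6ra were each other's nearest at 0.24. The nearest member to Csf2rb was Csf2rb2 at 0.42, and Csf1r was farthest from any other, at 0.76 from Csf3r.

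The promoters of the pair nearest in pattern with the high WT library, Csf2rb2 and Il6ra, and of Csf2ra, whose genotypes did not overlap, are shown as the 250 bases before the start in RefSeq (GRCm38.p6, the assembly of mm10). They lie at chr15:78305722-78305971, chr3:89913197-89913446 and chr19:61228419-61228668, all on the minus strand, and are written 5′ to 3′ along the gene. Capitals mark matches on either strand to GAGGAA (the core of sites for the myeloid factor PU.1), AGATAA (sites for GATA factors), TTGCNNAA (C/EBP factors), TTCNNNGAA (STAT factors) or the p53 half-site.
Csf2rb2: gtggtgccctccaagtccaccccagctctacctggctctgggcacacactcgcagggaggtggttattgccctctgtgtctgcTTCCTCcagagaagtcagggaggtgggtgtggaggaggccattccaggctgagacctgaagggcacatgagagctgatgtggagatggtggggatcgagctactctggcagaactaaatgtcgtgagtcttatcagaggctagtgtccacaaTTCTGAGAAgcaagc
Il6ra: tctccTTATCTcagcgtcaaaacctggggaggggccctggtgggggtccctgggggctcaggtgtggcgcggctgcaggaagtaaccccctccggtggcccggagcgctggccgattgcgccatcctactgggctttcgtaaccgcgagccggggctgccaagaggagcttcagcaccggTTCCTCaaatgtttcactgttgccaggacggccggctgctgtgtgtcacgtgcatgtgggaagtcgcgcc
Csf2ra: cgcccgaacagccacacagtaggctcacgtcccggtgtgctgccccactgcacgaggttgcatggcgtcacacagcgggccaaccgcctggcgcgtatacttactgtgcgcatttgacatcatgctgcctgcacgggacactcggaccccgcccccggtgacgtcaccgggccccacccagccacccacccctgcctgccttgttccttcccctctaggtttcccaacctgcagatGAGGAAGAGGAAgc
Csf2rb2 held GAGGAA, read as TTCCTC on this strand, 167 bases before the start and a STAT match, TTCTGAGAA, 15 bases before it. Il6ra held GAGGAA 70 bases before the start and AGATAA 245 bases before it, and Csf2ra held GAGGAA at 14 and at 8 bases before it. No matches to different motifs overlapped.

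Among the 7 receptor genes with a matching promoter entry, Flt3, Csf3r, Csf2ra, Csf2rb2, Il6ra, Il6st and Epor, 4 held GAGGAA, the fourth being Csf3r at 86 bases before the start. Of all 32851 promoter windows of the same length, 23.3% held it. AGATAA was in Il6ra and Epor, where it lay 54 bases before the start, and in 9.99% of all windows. The bases just after the Epor start were not found in its GENCODE M21 transcripts, so that distance is less certain. The STAT letters were in Csf2rb2 alone of the 7 and in 7.02% of all windows, TTGCNNAA in 0 of the 7 and in 9.56%, and the p53 half-site in 0 of the 7 and in 7.13%. Flt3 and Il6st held none of the motifs searched. A match is a run of letters and was not measured as a bound site.

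Of 13 listed ligand genes 6 were tested and 0 passed in either direction, and Csf3, Csf2, Il3 and Epo, which encode G-CSF, GM-CSF, IL-3 and erythropoietin, had 0 reads in all 4 libraries. Flt3l, the ligand of Flt3, was highest in CPM at 36.2 and 17.9 CPM in p53R248W/+ and at 6.83 and 33.0 CPM in WT, and Csf1, which encodes M-CSF, followed at 11.5 and 25.6 CPM in p53R248W/+ and at 17.3 and 12.1 CPM in WT. Both overlapped between genotypes. Per length, Flt3l was at 33.7 and 16.7 RPKM in p53R248W/+ and at 6.36 and 30.7 RPKM in WT, above Flt3 in p53R248W/+ replicate 1 and WT replicate 2. Lif, a cytokine that signals through Il6st, was at 9.31 and 0.248 CPM in p53R248W/+ and at 0.349 and 1.68 CPM in WT, so 1 library carried its level. Osm, another ligand of the Il6st family, was at 2.698 and 5.70 CPM in p53R248W/+ and at 12.5 and 5.12 CPM in WT.

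Among 26 tested of 28 other cytokine receptor genes, 0 passed in either direction, and the median log2 fold change was -0.07. Ifnar2, a chain of the type I interferon receptor and the second in CPM after Kit, was at 219 and 226 CPM in p53R248W/+ and at 240 and 147 CPM in WT. Il2rg, the common gamma chain of the IL-2 and IL-7 receptors, had the smallest unadjusted p of the list. It was at 118 and 147 CPM in p53R248W/+ and at 214 and 210 CPM in WT, a log2 fold change of -0.68 ± 0.21 (SE; adjusted p = 0.824, edgeR quasi-likelihood test) that stayed between -0.84 and -0.53 with single libraries left out. Il2ra, the alpha chain of the IL-2 receptor, was at 6.27 and 3.55 CPM in p53R248W/+ and at 0.349 and 1.05 CPM in WT.

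Of the 23 kinases, STATs and adaptors beneath the receptors, all tested, 0 passed and the median log2 fold change was -0.05. The genes with the highest CPM were Pik3r1, the regulatory subunit of PI3 kinase, and Jak1, a kinase bound by Il6st. Pik3r1 was at 678 and 604 CPM in p53R248W/+ and at 490.1 and 475 CPM in WT (log2 fold change 0.41 ± 0.15, SE; adjusted p = 0.824, edgeR quasi-likelihood test). Jak1 was at 685 and 547 CPM in p53R248W/+ and at 504 and 506 CPM in WT, and Shc1, an adaptor, was at 99.0 and 112 CPM against 64.9 and 79.7 CPM. For these 3 genes both p53R248W/+ libraries lay above both WT libraries, which was so for 6 of the 23 genes and for 16.9% of all tested genes. In the same list 15 of the 23 genes had a log2 fold change below 0, beside 50.01% of all tested genes. Of the 23, 0 lay below both WT libraries in both p53R248W/+ libraries, which was so for 16.6% of all tested genes.

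Of the inhibitors of receptor signalling and the STAT targets, 0 members passed. Of 16 inhibitors 12 had a log2 fold change below 0, with a median of -0.13, and of 19 STAT3 and STAT5 targets 15 had one below 0, with a median of -0.34, where 50.01% of all tested genes were below 0. The lists share Cish, Socs1, Socs2 and Socs3. Socs3, the feedback inhibitor of Il6st and Csf3r signalling, was at 8.77 and 11.1 CPM in p53R248W/+ and at 89.6 and 17.8 CPM in WT. Its log2 fold change of -2.45 ± 0.71 (SE; adjusted p = 0.824, edgeR quasi-likelihood test) was -0.85 without WT replicate 1, the library in which Csf2rb and Il6ra were high. Socs1, a further feedback inhibitor, had 0 and 2 reads in p53R248W/+, under the floor of 3 counts, and was at 1.88 and 3.44 CPM in WT.

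The ubiquitin ligase genes Cbl and Cblb, which mark activated receptors for degradation, were the inhibitors with the highest CPM. Cbl was at 256 and 273 CPM in p53R248W/+ and at 293 and 264 CPM in WT, and Cblb at 177 and 189 CPM in p53R248W/+ and at 168 and 152 CPM in WT. Among the targets, the survival gene Mcl1 was at 795 and 716 CPM in p53R248W/+ and at 1060 and 852 CPM in WT, a log2 fold change of -0.34 ± 0.14 (SE; adjusted p = 0.824, edgeR quasi-likelihood test) that was -0.17 without WT replicate 1. Myc was at 538 and 505 CPM in p53R248W/+ and at 608 and 437 CPM in WT. Junb, an AP-1 factor that is also an immediate early gene, was at 18.4 and 25.1 CPM in p53R248W/+ and at 65.8 and 29.2 CPM in WT, and its log2 fold change of -1.15 was -0.45 without WT replicate 1.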

How the data were processed

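The authors deposited raw read counts per gene symbol with exon lengths. The tools listed per the submitters' processing notes are STAR 2.7.10a, featureCounts (Subread 2.0.3), edgeR 3.40.2 and FastQC 0.11.5, with build mm10. The strand setting is not stated. Genes were filtered with filterByExpr (minimum count 10, minimum total 15), scaled by TMM and tested with edgeR 4.0.16 (R 4.3.3; glmQLFTest after glmQLFit with robust=TRUE and legacy=FALSE) on genotype alone, with Benjamini-Hochberg adjustment over all 13296 tested genes. CPM and RPKM use the TMM-scaled totals and the deposited exon lengths. The SE of a fold change is its size over the square root of its F statistic. The test was tried on simulated counts. Alternatives included DESeq2 1.42.0 and limma-voom (limma 3.58.1). Coding sequences were aligned with Biopython 1.88. All 9 receptors were to be named, and from each pathway list the 2 genes with the highest CPM and the 2 with the smallest p; other genes were named as markers or after their values were seen. The receptors and all lists were chosen with earlier results of these data known. Intervals and floors cover counting error or the spread of these libraries only.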

Additional observations from a re-analysis of the deposited data

How the results depend on the processing

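Of the 9 receptor genes, 0 passed the threshold under every alternative: median-ratio and total-count scaling, DESeq2, limma-voom, a filter that was dropped or made stricter (a mean of 5 CPM, with 1 CPM reached in 2 libraries), the replicate block, the legacy quasi-likelihood method (chosen after the data were seen) and each library left out. Over all genes the count was 0 in each, except 6 with DESeq2 and 0 to 4 with single libraries left out, where the 4 came without p53R248W/+ replicate 2. With single libraries left out, the log2 fold changes ran from -0.078 to 0.97 for Flt3, from -0.25 to 0.44 for Csf3r, from -1.47 to 0.35 for Csf2rb2, from -0.00014 to 2.32 for Csf1r, from -1.02 to 0.87 for Il6ra and from -1.94 to 0.55 for Epor, all crossing 0. No other alternative turned a direction. The labels state no pairing of libraries by replicate number. Deviations of same-numbered libraries from their genotype means correlated at -0.007 over 13296 genes. That value covers all genes together and does not speak for single genes. With the replicate block 0 genes passed, and Csf2rb was at -1.51 (unadjusted p = 0.0131; adjusted p = 0.791, edgeR quasi-likelihood test; adjusted p of Csf2rb over all alternatives 0.17 to 1). The order of levels was the same with total-count scaling; without length correction 7 of the 9 genes kept their place, and Csf2rb2 and Csf2ra changed places. The biological coefficient of variation was 46.0%, which limits what 2 libraries per genotype can show.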
